A study of Mus musculus with 39 samples.

Results

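Leukaemia cells carrying AE9a together with added miR-126 were compared between the 4th and the 1st passage through recipient mice. The groups were taken from the array titles as AE9a+miR-126-P4 and AE9a+miR-126-P1, with 3 mice in each. These are 6 of the 39 arrays of the series, and 22180 genes were compared. AE9a is a truncated splice form of AML1-ETO, the fusion protein of acute myeloid leukaemia with the t(8;21) translocation. All 6 mice carried leukaemia with AE9a and added miR-126, so the groups differ in passage alone as far as the labels say. At each passage bone marrow was taken when recipients had reached end stage, and donor-derived cells were sorted by flow cytometry for the CD45.1 form of the pan-leukocyte antigen. The study also profiled AE9a alone and, as miR-126KO+AE9a, the same oncogene in cells lacking miR-126, again with 3 mice at each of 4 passages. Normal controls were 3 further recipients from passage 1. The sources used here do not give the mouse strain, the age, the vector and its promoter, or the number of founding clones. Nothing in the labels links a recipient to the mouse its cells came from, so the p-values reflect only the variation among recipients. That variation is pooled over all 39 arrays and not taken from the 6 compared ones alone, and the number of arrays limits the precision.

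Serial transplantation passes leukaemia cells from sick mice to new recipients, and it tests which cells can go on growing. In normal marrow the granulocyte lineage runs from progenitors marked by factors such as MYB, through cells filling primary granules with proteases, to neutrophils that fill secondary granules with lactoferrin and carry receptors for inflammatory signals. The runt factor RUNX1, whose target sites AE9a also binds, and the C/EBP factors drive that maturation. The microRNA miR-126 is abundant in blood stem cells and endothelium, lies in an intron of Egfl7, and lowers messages that pair with its seed, Spred1 and Errfi1 among the reported ones.

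The labels name the added molecule only as miR-126, and which mature strand it gives was not tested. Any mature strand other than mmu-miR-126a-3p was missing from the sources used here and is not shown. Since a seed is what pairs with target messages, mmu-miR-126a-3p is shown with its seed marked. RefSeq places it at chr2:26591402-26591423 on the plus strand of GRCm38.p6. Capitals mark the seed, bases 2 to 8 counted from the 5′ end.
mmu-miR-126a-3p: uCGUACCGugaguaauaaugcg

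The probe set shared by Mir126a and its host gene Egfl7 was read first, as a check of the added miR-126. On the log2 scale it read 8.48, 8.27 and 8.18 at passage 1 and 6.61, 6.63 and 8.60 at passage 4. Replicate 3 of passage 4 lay above all 3 arrays of passage 1 and replicates 1 and 2 lay below them, so the groups overlapped. In AE9a and the knockout arm the same probe set read between 2.76 and 3.15 on every array, and all 6 compared arrays lay above that. Passage 4 differed from passage 1 by -1.03 ± 0.51 (SE, n = 3 and 3, limma adjusted p = 0.132). The difference was 0.29 without the arrays of narrow spread described next and 0.03 with the spread as a covariate, so it has no settled direction. Egfl7 measured by its own probe set read 5.47, 5.76 and 5.72 at passage 1 and 6.09, 6.61 and 5.98 at passage 4. It rose by 0.58 ± 0.21 (adjusted p = 0.0475) and lost the call without the arrays of narrow spread (0.33, adjusted p = 0.59).

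The spread of the arrays differed within the passage 4 group. The SD of the log2 values over all probe sets was 2.03, 1.98 and 1.99 at passage 1, and 1.66, 1.63 and 2.01 at passage 4. Replicates 1 and 2 of passage 4 therefore lay below all passage 1 arrays and replicate 3 lay among them. Group means were 2.00 ± 0.026 and 1.77 ± 0.213 (SD, n = 3 each), a difference of -0.230 (exact two-sided permutation p = 0.3, where 3 mice against 3 cannot go below 0.1). Of the 39 arrays 8 had an SD under 1.8, and 7 of these were among the 12 with added miR-126. The narrow arrays were shifted by level. Genes were ordered by their level in normal controls and cut into 10 equal groups. In the lowest group the median difference from passage 1 was 0.385 and 0.423 in replicates 1 and 2 and -0.048 in replicate 3. In the highest group it was -0.797, -0.976 and -0.045. Replicates 1 and 2 correlated with each other at 0.979 over probe sets and with replicate 3 at 0.906 and 0.885, against 0.970 to 0.992 between passage 1 arrays. The median difference over all genes was 0.13, and 0.01 without the arrays with an SD under 1.8, 0.00 after cyclic loess and 0.02 after quantile normalization. The arrays with an SD under 1.8 are called narrow; without them replicate 3 is alone at passage 4, and calls lost that way are named with the genes or gathered after them. The part of RNA quality or of another step in the narrow spread was not tested.

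**Figure D1:**
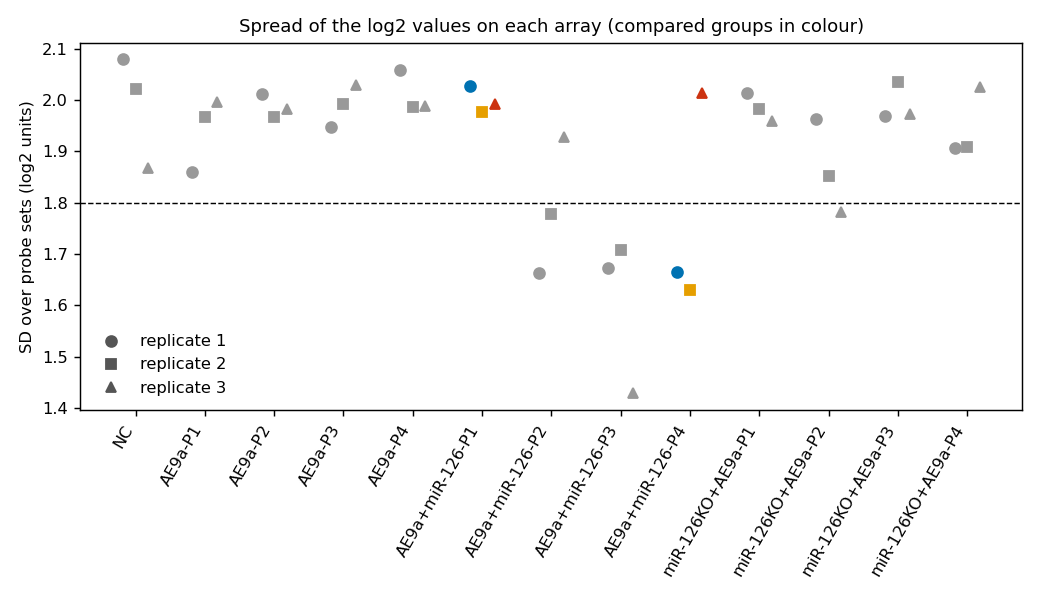
SD of the log2 expression values over all probe sets (y axis, log2 units) for each of the 39 arrays, by group (x axis); marker shape is the replicate number, the 6 compared arrays are in colour and the dashed line is at 1.8. Replicates 1 and 2 of AE9a+miR-126 at passage 4 (1.66 and 1.63) lie below the line, while replicate 3 (2.01) lies with the passage 1 arrays.

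**Figure D2:**
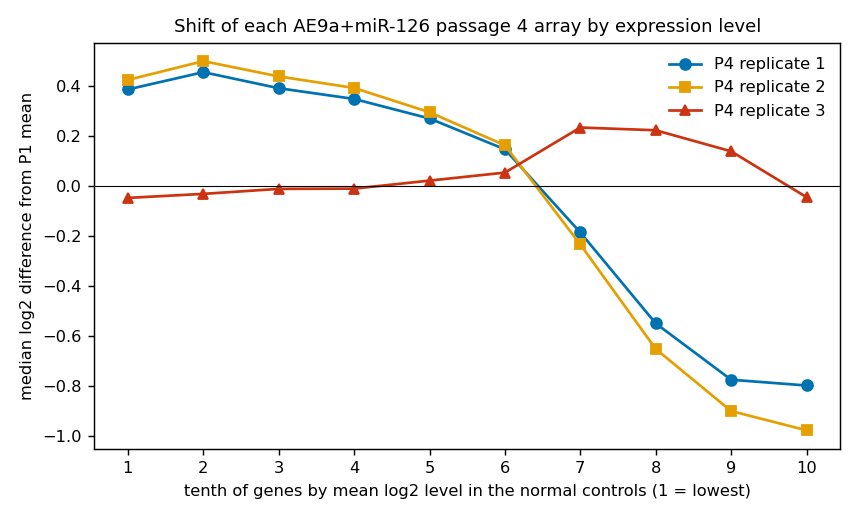
Median log2 difference of each AE9a+miR-126 passage 4 array from the mean of the 3 passage 1 arrays (y axis) in 10 equal groups of genes ordered by mean log2 level in the normal controls (x axis). Replicates 1 and 2 run from 0.385 and 0.423 in the lowest group to -0.797 and -0.976 in the highest, and replicate 3 stays between -0.048 and 0.233.

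One passage 1 array also stood apart. Genes of the Y chromosome, which only male cells transcribe, were raised on replicates 1 and 3 of passage 1: Eif2s3y read 7.26, 4.19 and 6.90 at passage 1 and 4.33, 3.74 and 3.95 at passage 4. Replicate 2 lay with the passage 4 arrays. Xist, the RNA of the inactive X chromosome in female cells, read 11.40 to 11.45 at passage 1 and 11.56 to 11.99 at passage 4. In this list of 4 sex-linked genes none passed in limma (1 lower at an unadjusted p under 0.05), and the median was -1.04. Replicates 1 and 3 were also the passage 1 arrays with more signal for neutrophil, B cell and MHC class II genes. The labels give no sex, and the part of these Y-linked signals in any result was not tested. These 2 are called the Y-linked arrays, and calls lost without them, with replicate 2 alone left at passage 1, are named in the same way. Ptprc, which encodes CD45, was high on all 6 arrays, at 11.32 to 11.68 in passage 1 and 10.04 to 10.21 in passage 4. Every passage 4 array, narrow or wide, thus lay below every passage 1 array.

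Between passages 1 and 4, 23 of 25 mature neutrophil genes fell, as did the cytokine genes Il1a and Il1b, while Myb, Myc and Flt3 were among the genes that rose. In limma 5395 genes changed, 24.3% of those tested, 2469 higher (11.1%) and 2926 lower (13.2%). The arrays of the 2 passages did not overlap for 1511 of the rises (6.81%) and 2501 of the falls (11.3%). A difference of at least 2-fold was seen in 2600 of them, 634 higher and 1966 lower. Calls followed level in the 10 equal groups by normal level. In the lowest group 319 of 2218 genes rose and 7 fell, and in the highest 73 of 2218 rose and 917 fell. The gene lists below are set against the shares of all genes and were not matched for level. A list of bright genes can therefore exceed the share of falls without differing from equally bright genes. The split moved with the spread: with it as a covariate 1961 genes were higher and 1440 lower, and without the narrow arrays 1893 were higher (8.53%) and 1180 lower (5.32%), 13.9% in all. Of the 2469 rises 677 remained without the narrow arrays, and of the 2926 falls 1131 remained. In all 3 of these settings 627 genes rose (2.83%) and 995 fell (4.49%), together 7.31%, and these are called the shared rises and falls. None of the changed genes passed in the opposite direction in any of the 17 other settings of the same gene set that were fitted. With only the compared groups in the fit, and so only their own spread, 1559 genes changed, 209 higher and 1350 lower. The count rested on single mice: it was 9796 without replicate 3 of passage 4, 2779 and 2717 without replicates 1 and 2, and 3015 and 3363 without replicates 1 and 3 of passage 1. It was 1044 (4.71%) without both passage 1 arrays with Y-linked signal, 152 higher (0.685%) and 892 lower (4.02%). Without these and the narrow arrays it was 1262 (5.69%), 695 higher (3.13%) and 567 lower (2.56%).

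The deepest falls were Il1a, Retnlg, Stfa2l1, Acod1, Ltf, Ifi205, Slc7a11, Ifitm6, Ifi204, Ptafr, Il1b and Plet1, between -6.64 and -5.18 on the log2 scale. All 12 are shared falls and passed without the Y-linked arrays too. Il1a, the cytokine interleukin 1 alpha, read 10.79, 11.61 and 11.14 at passage 1 and 4.89, 4.50 and 4.23 at passage 4. Every passage 4 array lay far below every passage 1 array, at the normal controls' 4.45 ± 0.09. It fell by 6.64 ± 0.83 on the log2 scale (adjusted p = 8.41e-07). Array medians were 5.40 to 5.67 and no detection calls were used, so for genes with one end at or below that level no fold is given and the log2 difference includes background signal. Il1b, the related cytokine interleukin 1 beta, read 11.17, 11.42 and 11.35 at passage 1 and 6.90, 6.31 and 4.67 at passage 4. It fell by 5.36 ± 0.73 (adjusted p = 2.92e-06), with its lowest value on the array of wide spread. Acod1, the enzyme that makes itaconate in activated macrophages, went from 11.42, 11.11 and 11.34 to 5.64, 5.73 and 4.65 (-5.95 ± 0.83, adjusted p = 4.94e-06). Its groups lay far apart, and passage 4 ended below the normal mean of 7.54.

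Retnlg, a resistin-like protein secreted by neutrophils, read 12.12, 10.50 and 12.16 at passage 1 and 4.93, 5.14 and 4.99 at passage 4. The lowest passage 1 value was that of replicate 2, and the passage 4 arrays agreed closely with each other despite their difference in spread. It fell by 6.57 ± 0.62 (adjusted p = 8.33e-09), from a level near that of normal marrow (12.42 ± 0.25). Ltf, the iron-binding lactoferrin of secondary granules, read 11.99, 9.96 and 11.71, and then 5.38, 5.93 and 4.86 (-5.83 ± 0.67, adjusted p = 2.27e-07). Stfa2l1, one of the stefin A inhibitors of cysteine proteases, read 10.77, 10.49 and 10.67, and then 4.75, 5.03 and 4.15 (-5.999 ± 0.96, adjusted p = 3.04e-05). Stefin A genes are near-identical copies, so probes may take signal from a neighbour in the family. Ptafr, the receptor for platelet-activating factor, fell by 5.37 ± 0.49 and Slc7a11, which imports cystine, by 5.71 ± 0.81.

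Ifi204 and Ifi205, interferon-inducible DNA sensors of the Ifi200 family with close paralogs, fell by 5.46 ± 0.55 and 5.80 ± 0.62. Ifi204 read 8.76, 8.99 and 8.79 at passage 1 and 3.77, 2.98 and 3.42 at passage 4. No passage 4 array came near the passage 1 values or the normal controls' 7.51. Ifitm6, a member of the interferon-induced transmembrane family, fell by 5.64 ± 0.55, from a level below normal marrow (11.99) to 4.84, 5.36 and 4.91. Plet1, a surface protein, read 11.57, 11.28 and 11.46 at passage 1, 6.49, 6.76 and 5.51 at passage 4, and 5.73 ± 0.20 in normal marrow. Its fall of 5.18 ± 0.37 (adjusted p = 5.23e-11) brought it close to the normal level.

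Of 25 measured mature neutrophil genes 23 fell, against 13.2% of all genes, with a list median of -3.66 against 0.13 over all genes. Without the narrow arrays the list median was -3.58, against 0.01 over all genes. In bulk samples fewer cells of a type and less RNA per cell cannot be told apart. Besides Ltf and Retnlg, the secondary granule genes Ngp (-3.66 ± 0.31, adjusted p = 1.26e-09) and Camp (-4.92 ± 0.85), which encodes the cathelicidin peptide, fell. S100a8 and S100a9, the subunits of calprotectin, fell by 4.62 ± 0.51 and 3.94 ± 0.55. S100a8 read 11.87, 10.65 and 11.85 at passage 1 and 6.43, 6.26 and 7.82 at passage 4. Among surface receptors Itgam, which encodes CD11b, read 10.98, 10.10 and 10.71, and then 5.90, 5.81 and 7.02 (-4.36 ± 0.47, adjusted p = 6.9e-08). The passage 4 arrays again lay below all passage 1 arrays, with replicate 3 the highest of the 3. Cxcr2, the chemokine receptor that draws neutrophils into tissue, fell by 4.78 ± 0.61, and Csf3r, the G-CSF receptor, by 2.68 ± 0.46. Mmp8, the collagenase of neutrophil granules, stood apart from the rest of the list at 11.85, 11.64 and 11.79 and then 11.27, 10.93 and 11.67 (-0.47 ± 0.32, adjusted p = 0.274).

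The summed level of the 25 neutrophil genes, as log2 of the sum, was 15.75, 14.75 and 15.57 at passage 1, 12.51, 12.28 and 12.83 at passage 4, and 15.89 to 16.11 in normal marrow. Replicate 2 of passage 1 had the lowest sum of its group and was still above all of passage 4. Without replicates 1 and 3 of passage 1 the list median was -3.01 and 11 of the 25 genes passed. Ly6g, the neutrophil surface antigen, read 10.83, 7.55 and 10.52 and then 5.27, 4.54 and 4.59, and lost the call there (-2.75, adjusted p = 0.249).

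**Figure D3:**
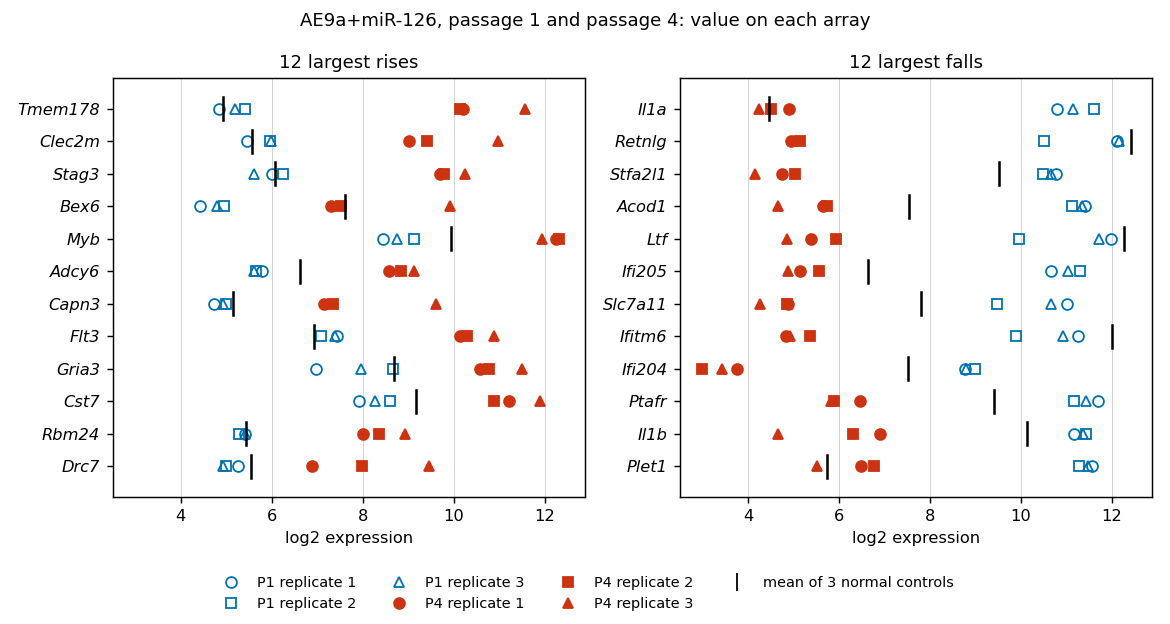
Log2 expression (x axis) of the 12 genes that rose furthest (left) and the 12 that fell furthest (right) on each AE9a+miR-126 array; open markers are passage 1, filled markers passage 4, marker shape is the replicate number and the black tick is the mean of the 3 normal controls. No gene shown has overlapping groups, since the choice of genes required that. Il1a and Plet1 end near the normal mean, while Retnlg starts near it on replicates 1 and 3 and below it on replicate 2.

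The promoters of Ltf and Retnlg are shown because these neutrophil genes are among the deepest falls and their windows hold letters that C/EBP or runt factors can bind. Windows run from 250 bases before to 50 after the RefSeq start in GRCm38.p6, chr9:111019042-111019341 for Ltf and chr16:48872358-48872657 for Retnlg, both on the plus strand. Capitals mark TTGCNNAA for C/EBP and TGTGGT for RUNX, searched on both strands; the 2 patterns share no overlapping match in these windows.
Ltf: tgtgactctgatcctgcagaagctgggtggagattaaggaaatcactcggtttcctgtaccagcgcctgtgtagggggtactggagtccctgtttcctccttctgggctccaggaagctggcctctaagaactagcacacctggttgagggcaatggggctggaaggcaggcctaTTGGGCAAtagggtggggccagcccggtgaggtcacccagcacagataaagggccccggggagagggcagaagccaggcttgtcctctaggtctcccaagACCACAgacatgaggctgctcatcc
Retnlg: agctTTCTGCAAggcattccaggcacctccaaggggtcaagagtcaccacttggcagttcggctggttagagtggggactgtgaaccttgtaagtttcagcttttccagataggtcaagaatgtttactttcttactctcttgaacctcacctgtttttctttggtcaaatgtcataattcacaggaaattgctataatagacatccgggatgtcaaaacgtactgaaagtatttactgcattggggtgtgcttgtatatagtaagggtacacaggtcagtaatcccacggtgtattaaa
Over 16990 tested genes with a promoter entry, 10.2% held the C/EBP letters and 14.6% the RUNX letters. Among 798 shared falls with an entry the shares were 10.2% and 13.9%, and among 484 shared rises 9.09% and 14.3%. These shares lie near the background, and a match is a description of the letters, not a binding site.

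Of 26 immediate early and inflammatory genes 8 fell and 7 rose (median -0.17), against 13.2% and 11.1% of all genes, and the other 11 did not pass. The falls were Il1a, Il1b, Acod1, Cxcl2, Il6, Tnf, Nfkbia and Tnfaip3. Tnfaip3, the A20 inhibitor of NF-κB, read 10.79, 11.18 and 10.995 at passage 1 and 8.06, 8.39 and 8.47 at passage 4 (-2.68 ± 0.33, adjusted p = 6e-07). Its arrays of narrow and wide spread lay together, all below passage 1. Cxcl2, a neutrophil-attracting chemokine, fell by 4.87 ± 0.68. The rises were Fos, Fosb, Jun, Egr1, Egr3, Ier2 and Atf3. Jun, a subunit of the AP-1 factor, read 10.82, 11.43 and 11.19, and then 12.20, 12.32 and 12.43 (1.17 ± 0.21, adjusted p = 0.000162). Fos, chosen for naming after its values were seen, rose by 2.54 ± 0.52 (adjusted p = 0.000719). Both lost the call without the Y-linked arrays, Jun at adjusted p = 0.087 and Fos at adjusted p = 0.105.

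Of 25 interferon response genes 7 fell, against 13.2% of all genes, with a median of -0.56. Apart from Ifi204 these were the antiviral genes Oas3, Oasl1, Oasl2 and Rsad2 and the RNA sensors Ifih1 and Ddx58. Oasl2 read 9.77, 7.10 and 9.23 at passage 1 and 5.46, 5.50 and 6.88 at passage 4, a fall of 2.75 ± 0.66 (adjusted p = 0.00285). Replicate 2 of passage 1 lay close to the highest passage 4 array. Without the narrow arrays only Ifi204 of this list passed, and Oasl2 stood at -1.82 (adjusted p = 0.213).

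Monocyte and macrophage genes were mixed, with 9 of 30 lower and 1 higher, against 13.2% and 11.1% of all genes, and a median of -0.22. Fn1, fibronectin, read 11.67, 12.40 and 12.09 at passage 1 and 6.43, 6.32 and 8.03 at passage 4 (-5.12 ± 0.59, 34.8-fold, adjusted p = 2.15e-07). Msr1, a scavenger receptor, read 9.61, 10.66 and 10.24, and then 6.24, 6.15 and 4.34 (-4.59 ± 0.57, adjusted p = 8.55e-07). Both fell on the wide array as on the narrow ones. Vcan, the proteoglycan versican, fell by 3.65 ± 0.55, Adgre1, a surface receptor of macrophages, by 3.27 ± 0.50, and Lyz2, lysozyme, by 2.22 ± 0.31. Lyz1 and Lyz2 are close copies whose probes may share signal. Cd163, the haemoglobin scavenger receptor, was the rise, from 4.88, 9.11 and 7.89 to 8.36, 8.29 and 10.73 (1.83 ± 0.67, adjusted p = 0.0445). Its groups overlapped, and without the Y-linked arrays the difference was 0.01 (adjusted p = 0.994). Ccr2 and Cd14 did not pass (-0.11 and -1.08, adjusted p = 0.838 and 0.14). The list's summed level was 14.54 to 14.86 at passage 1, 13.67 to 14.21 at passage 4 and 14.24 to 14.40 in normal marrow.

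Falls of single genes on the dendritic, B cell and mast cell lists, H2-Aa, Cd79a and Cpa3 among them, rested on replicates 1 and 3 of passage 1. Of 17 MHC class II and dendritic genes 5 fell and Flt3 rose (median -0.06), against 13.2% and 11.1% of all genes. H2-Aa, a chain of an MHC class II molecule, read 9.88, 5.97 and 9.24 at passage 1 and 4.06, 4.68 and 4.68 at passage 4. Replicate 2 lay closer to passage 4 than to its own group. The fall of 3.89 ± 0.62 (adjusted p = 3.27e-05) became -1.496 (adjusted p = 0.223) without replicates 1 and 3, and the other 4 falls, H2-Ab1, H2-DMa, H2-DMb2 and Itgax, lost the call too. Cd79a, a signalling chain of the B cell receptor, behaved alike, at 8.19, 5.50 and 7.65 and then 4.78, 4.78 and 4.29 (-2.50 ± 0.49, and -0.88 without those arrays, adjusted p = 0.435).

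Of 18 B cell genes 7 fell and 3 rose (median -0.57), against 13.2% and 11.1% of all genes. The rises were Igll1, part of the surrogate light chain, Dntt, the terminal transferase, and Rag2 of the recombinase, all genes of early lymphoid cells. Other members did not follow them. Vpreb1, Vpreb2, Vpreb3 and Pax5 did not pass, and Ebf1, Blnk and Pou2af1 were among the falls. Igll1 read 5.47, 5.01 and 5.26 at passage 1 and 7.15, 6.77 and 8.95 at passage 4 (2.38 ± 0.50, adjusted p = 0.000921), and it kept the call without the Y-linked arrays (2.62, adjusted p = 0.0335). Dntt read 4.59, 4.61 and 4.50, and then 5.32, 6.01 and 9.14, highest on the wide array. Cd24a, a surface glycoprotein also found on granulocytes, fell by 3.54 ± 0.44 and was the B cell list fall that kept the call there. Of 20 T and NK cell genes 3 fell and 1 rose (median -0.23), near or under the shares of all genes (13.2% lower and 11.1% higher). Ccl5, a chemokine of activated lymphocytes, went from 11.13, 10.53 and 10.83 to 6.62, 6.52 and 5.84 (-4.51 ± 0.50, adjusted p = 9.67e-08). Klrb1c, the NK1.1 receptor, rose by 2.10 ± 0.31 (adjusted p = 7.63e-06).

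Among 19 genes of mast cells, basophils and eosinophils 2 fell and 1 rose (median 0.09), under the shares of all genes (13.2% and 11.1%). Cpa3, a mast cell protease, fell by 2.47 ± 0.74 and Hdc, the histamine-making enzyme, by 2.22 ± 0.61, and both lost the call without the Y-linked arrays and without the narrow arrays. Mcpt8, a basophil protease, rose from 6.12, 5.72 and 6.002 to 7.40, 7.31 and 9.24 (2.04 ± 0.50, adjusted p = 0.00352). Of 15 erythroid genes none passed in limma (1 higher at an unadjusted p under 0.05, median 0.26), and of 13 megakaryocyte genes Itgb3, an integrin of platelets, rose by 0.83 ± 0.31 (list median 0.19). Of 19 stroma and endothelium genes 3 collagen and matrix genes rose and Fabp4, a fatty acid binding protein, fell by 2.83 ± 0.87 (median 0.24). Such counts lie near or under the shares of all genes (11.1% higher and 13.2% lower). Without the narrow arrays these 4 calls were lost, and Col1a2 went from 0.55 ± 0.20 to -0.01.

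The furthest rises were Tmem178, Clec2m, Stag3, Bex6, Myb, Adcy6, Capn3, Flt3, Gria3, Cst7, Rbm24 and Drc7, between 3.04 and 5.48. All 12 are shared rises and kept the call without the Y-linked arrays, and in 11 of the 12 the wide replicate 3 was the highest passage 4 array. Tmem178, a transmembrane protein, read 4.84, 5.40 and 5.20 at passage 1 and 10.20, 10.14 and 11.56 at passage 4. Every passage 4 array was above every passage 1 array and the normal controls (4.92 ± 0.45). It rose by 5.48 ± 0.53 (adjusted p = 9.8e-09), from passage 1 values at or below the array medians. Clec2m, a C-type lectin family member, read 5.45, 5.97 and 5.98, and then 9.01, 9.40 and 10.96 (3.99 ± 0.38, adjusted p = 9.8e-09). Stag3, a cohesin subunit of meiotic cells, read 6.01, 6.24 and 5.61, and then 9.70, 9.79 and 10.24 (3.96 ± 0.51, adjusted p = 1.38e-06). Bex6, of the Bex gene family, rose by 3.53 ± 0.60, to levels that span the normal mean of 7.61. Capn3, the calpain protease of muscle, Gria3, a glutamate receptor subunit, Rbm24, an RNA-binding protein of heart and muscle, and Drc7, a subunit of the dynein regulatory complex of flagella, rose by 3.14, 3.09, 3.06 and 3.04. Adcy6, an adenylyl cyclase that makes cyclic AMP, rose by 3.17 ± 0.48.

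Stem and progenitor genes split, with 7 of 32 higher and 2 lower, against 11.1% and 13.2% of all genes (median -0.02, and 0.23 without the narrow arrays). The rises were Myb, Flt3, Myc, Cd34, Lmo2, Egr1 and Sox4. Myb, the transcription factor of blood progenitors, read 8.43, 9.13 and 8.75 at passage 1 and 12.26, 12.31 and 11.94 at passage 4. All passage 4 values exceeded passage 1 and the normal 9.95 ± 0.52, and the narrow and wide arrays differed little. It rose by 3.40 ± 0.41 (10.5-fold, adjusted p = 4.63e-07). Flt3, a receptor tyrosine kinase of early progenitors, read 7.44, 7.07 and 7.40, and then 10.14, 10.28 and 10.89 (3.14 ± 0.63, adjusted p = 0.000503). Cd34, a surface marker of progenitors, rose by 1.49 ± 0.51 and lost the call without the Y-linked arrays (1.85, adjusted p = 0.181). Kit, the stem cell factor receptor, did not pass (-0.29 ± 0.43, adjusted p = 0.635). Cd9, a tetraspanin, fell by 2.87 ± 0.42 and Prom1, which encodes CD133, by 1.61 ± 0.49.

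Of 23 MYC and ribosome biogenesis genes 8 rose and none fell (1 lower at an unadjusted p under 0.05), with a median of 0.56. Over all genes 11.1% rose and 13.2% fell. Without the narrow arrays the list median was 1.13, against 0.01 over all genes. Myc itself read 7.00, 6.98 and 6.98 at passage 1 and 9.30, 8.83 and 9.79 at passage 4. Its passage 1 arrays were almost identical, below the normal 8.30 ± 0.14, and all passage 4 arrays were above it. It rose by 2.32 ± 0.34 (4.99-fold, adjusted p = 7.42e-06). Nop56, a core protein of the complexes that modify ribosomal RNA, rose by 1.29 ± 0.25, Wdr12, a ribosome assembly factor, by 1.33 ± 0.28 and Gnl3, nucleostemin, by 1.20 ± 0.35. Without the Y-linked arrays Myc was the 1 member that passed (2.33, adjusted p = 0.00391).

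The medians of the cell cycle and respiratory chain lists changed sign when the narrow arrays were left out. Of 32 cell cycle and DNA replication genes E2f8, a repressing E2F factor, was the single call (-1.87 ± 0.48, adjusted p = 0.00549), and the median was -0.23. Without the narrow arrays the list median was 0.83, against 0.01 over all genes, while E2f8 stood at -0.22. Their summed level was 13.44 to 13.47 at passage 1 and 13.06, 12.60 and 14.23 at passage 4, so the narrow arrays lay below passage 1 and the wide one above. Tk1, thymidine kinase, read 6.95, 7.07 and 6.78, and then 7.31, 7.03 and 8.30 (0.62 ± 0.25, adjusted p = 0.0645). Of 20 respiratory chain genes Sdhb, a subunit of succinate dehydrogenase, was lower by 0.86 ± 0.30 (adjusted p = 0.0364), and its difference was 0.14 without the narrow arrays, where the list median went from -0.26 to 0.50. Of 10 housekeeping genes none passed in limma (at an unadjusted p under 0.05, 1 was higher and 1 lower), and the median was -0.26. Actb, beta actin, read 9.12, 9.27 and 9.30, and then 8.95, 9.11 and 9.04.

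Primary granule genes moved in both directions, with 3 of 15 higher and 5 lower (median -0.09), against 11.1% and 13.2% of all genes. Cst7, cystatin F, an inhibitor of cathepsins, read 7.93, 8.61 and 8.27 at passage 1 and 11.22, 10.89 and 11.89 at passage 4 (3.07 ± 0.42, adjusted p = 3.32e-06). Prss57, a serine protease of azurophil granules, rose by 1.35 ± 0.38 (adjusted p = 0.00992). Ctsc, the cathepsin that activates these proteases, read 10.70, 11.12 and 10.98, and then 8.13, 7.29 and 9.16 (-2.75 ± 0.34, adjusted p = 5.96e-07). Elane, neutrophil elastase, read 10.94, 10.46 and 10.77, and then 9.14, 7.97 and 10.52. It fell by 1.52 ± 0.56 (adjusted p = 0.047), but on the wide array alone the difference was -0.21 (adjusted p = 0.94). Mpo, myeloperoxidase, did not pass (0.33 ± 0.52, adjusted p = 0.665). Its values of 10.64, 10.16 and 10.50 and then 10.66, 10.19 and 11.44 overlapped.

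Of 25 myeloid differentiation factors 5 rose and 7 fell (median -0.04), against 11.1% and 13.2% of all genes. Spi1, which encodes PU.1, read 9.93, 9.81 and 9.91 at passage 1 and 8.06, 8.06 and 8.93 at passage 4 (-1.53 ± 0.26, adjusted p = 5.47e-05). Rara, the retinoic acid receptor alpha, fell by 2.26 ± 0.32 and kept the call without either set of arrays (-1.79 without the narrow arrays and -2.06 without the Y-linked ones). Cebpe, the factor of late granulocyte maturation, read 9.47, 7.80 and 8.98, and then 5.78, 6.25 and 6.46. It fell by 2.58 ± 0.61 (adjusted p = 0.00248), with adjusted p = 0.0594 without the narrow arrays. Id1, an inhibitor of helix-loop-helix factors, fell by 1.54 ± 0.39. Cebpa, the factor that starts granulocyte commitment, was at 1.25 ± 0.50 (adjusted p = 0.066).

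The fusion and runt genes did not pass. Of 6 such genes none was called in limma (1 lower at an unadjusted p under 0.05, median 0.09). Runx1t1, the mouse counterpart of the ETO part of the fusion, read 5.92, 6.01 and 6.03 at passage 1 and 6.09, 6.36 and 6.04 at passage 4 (0.18 ± 0.20, adjusted p = 0.525). Whether these probes see the transgene could not be told from the labels. Runx1 read 9.98, 10.11 and 9.97, and then 9.30, 9.19 and 10.34, with the narrow arrays below passage 1 and the wide one above (-0.42 ± 0.25, adjusted p = 0.21). Of 13 genes that mark t(8;21) leukaemia 2 rose and 3 fell (median -0.24), against 11.1% and 13.2% of all genes. Cav1, caveolin 1, read 6.81, 7.66 and 6.92, and then 4.93, 4.46 and 3.84 (-2.72 ± 0.31, adjusted p = 1.99e-07). Ncam1, the adhesion molecule CD56, rose by 1.58 ± 0.44, Jup, plakoglobin, fell by 1.67 ± 0.39. Ncam1 lost the call without the Y-linked arrays, and Jup lost it both there and without the narrow arrays.

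Of 21 reported miR-126 targets 9 fell and 1 rose (median -0.51), against 13.2% and 11.1% of all genes. Without the narrow arrays the list median was -0.28, against 0.01 over all genes. With the spread as a covariate it was -0.145, against 0.022 over all genes. In that setting 6 fell and 2 rose, against 1440 and 1961 of all 22180 genes. Without both the narrow and the Y-linked arrays the list median was 0.021, against -0.009 over all genes. The fall of the list thus depended on the setting. Errfi1, a feedback inhibitor of EGF receptor signalling, read 10.24, 10.94 and 10.53 at passage 1 and 8.67, 9.05 and 6.79 at passage 4. All passage 4 arrays were below passage 1 and above the normal mean of 6.01. It fell by 2.40 ± 0.52 (5.28-fold, adjusted p = 0.00114). Spred1, which restrains RAS signalling, read 8.73, 9.01 and 8.88, and then 6.98, 6.27 and 7.82 (-1.85 ± 0.37, adjusted p = 0.000493). On the wide array alone it differed by -1.06 (adjusted p = 0.103). Crk, an adaptor of tyrosine kinase signalling, fell by 1.90 ± 0.28 and kept the call in both left-out sets. Ptpn9, a tyrosine phosphatase, fell by 1.24 ± 0.20 and Efhd2 by 1.43 ± 0.29. Zzef1 fell by 0.72 ± 0.24 and was at -0.31 without the narrow arrays (adjusted p = 0.416). Fzd7, a Wnt receptor, did not pass (-0.44 ± 0.24, adjusted p = 0.171) and was at 0.26 without them. The rise was Pik3r2, a regulatory subunit of PI3 kinase (0.75 ± 0.19, adjusted p = 0.00546). The other 11 targets did not pass.

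Of 16 ERK feedback genes 4 fell (median -0.21), against 13.2% of all genes. These were Dusp5, a nuclear phosphatase of ERK (-1.14 ± 0.31), Rasa2, a RAS GTPase activator (-1.87 ± 0.29), Spred1 and Errfi1. Rasa2 read 9.34, 8.62 and 9.01 at passage 1 and 7.00, 7.04 and 7.34 at passage 4, without overlap. Dusp6, the cytoplasmic phosphatase of ERK, was at 1.301 ± 0.62 (adjusted p = 0.12). Of 16 p53 targets 3 fell and 3 rose (median -0.22), counts that lie near the 13.2% and 11.1% of all genes. Fas, the death receptor, read 10.02, 9.36 and 9.79, and then 5.92, 5.96 and 4.87 (-4.14 ± 0.46, adjusted p = 1.14e-07). Mdm2, the ligase that degrades p53, fell by 1.77 ± 0.34. Pmaip1, the BH3-only protein NOXA, rose by 1.84 ± 0.45 and Btg2, an antiproliferative factor, by 1.496 ± 0.35, and both lost the call without the Y-linked arrays.

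Further calls of genes named here were lost when arrays were left out. Leaving aside the falls of the B cell list, without the narrow arrays these were H2-DMa, H2-DMb2, Itgax, Itgb3, Prom1, Lyz1, Ptpn9, Egr3 and Il6. Without the Y-linked arrays they were the granule and maturation genes Camp, Csf3r, Prss57, Elane and Cebpe, the early genes Fosb, Egr1, Egr3, Ier2 and Atf3, and the progenitor and early lymphoid genes Lmo2, Sox4, Prom1, Dntt and Rag2. The signalling genes Dusp5, Efhd2, Pik3r2, Zzef1 and Id1 were lost there too, as were Mcpt8, Itgb3, Fabp4, Col1a2, E2f8, Sdhb, Egfl7 and all interferon list falls other than Ifi204. These genes kept their direction there, at adjusted p-values that miss the threshold, which does not show that they did not change.

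**Figure D4:**
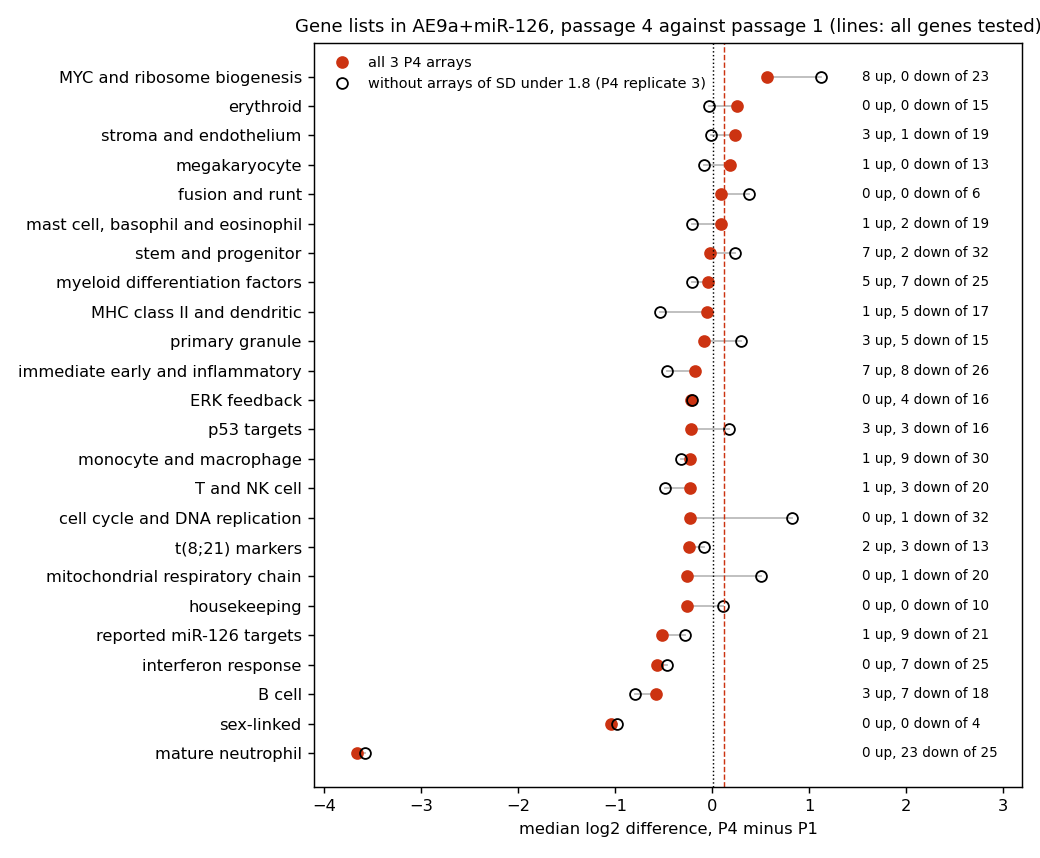
Median log2 difference between passage 4 and passage 1 in AE9a+miR-126 (x axis) for the measured members of each of 24 gene lists (y axis); filled circles use all 3 passage 4 arrays, open circles only replicate 3, after arrays with an SD under 1.8 were left out, and vertical lines give the median over all genes tested (dashed 0.127, dotted 0.013). Numbers at the right count members that passed in limma with all arrays; mature neutrophil genes lie lowest at -3.66 and -3.58, and cell cycle genes move from -0.23 to 0.83.

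Passages 2 and 3 of the same arm, which share their passage 1 arrays with this comparison, showed when the levels moved. For the 627 shared rises the mean at passage 2 lay between those of passages 1 and 4 for 568 genes and at passage 3 for 529, with a median of 34.0% and 62.5% of the final change reached. For the 995 shared falls the numbers were 914 and 443, with a median of 56.3% at passage 2 and 103.2% at passage 3. Passage 3 had narrow arrays only. At passage 2 replicates 1 and 2 were narrow (SD 1.66 and 1.78) and replicate 3 was not (1.93). The part of the narrow spread in these percentages was not tested. Tmem178 rose in steps, from 5.15 ± 0.29 (SD, n = 3) to 6.95 ± 1.77, 9.09 ± 1.20 and 10.63 ± 0.81 over passages 1 to 4. Myb was near its final level at passage 2, at 11.55 ± 0.87, against 12.17 ± 0.20 at passage 4. Plet1 had dropped to 7.74 ± 0.28 at passage 2 and Il1a to 7.95 ± 0.99. Retnlg instead stayed at 12.08 ± 0.23 and 10.74 ± 1.14 at passages 2 and 3 and was at 5.02 ± 0.11 at passage 4. Ltf read 10.84 ± 1.15, 8.01 ± 1.395 and 5.39 ± 0.53 at passages 2, 3 and 4. The cytokine Il1a was thus low earlier than the granule gene Retnlg in the order of means.

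The shared falls and rises were also set against the normal controls, as a description, since they were chosen on the same arrays. Of the 995 falls 682 ended with all 3 passage 4 arrays below all 3 controls, against 12.4% of all genes, and 600 had started with all passage 1 arrays above them, against 16% of all genes. Of the 627 rises 309 ended with all passage 4 arrays above all controls (14.4% of all genes), and 273 had started with all passage 1 arrays below them (14.8% of all genes). The shift of bright genes on the narrow arrays bears on the values at passage 4, and its part in these counts was not tested.

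The change from passage 1 to passage 4 was tested against the same change in the other arms, which share no mice with it. It differed from that in AE9a for 2336 genes (10.5%), 1018 in the positive (4.59%) and 1318 in the negative direction (5.94%). It differed from that in the knockout arm for 788 (3.55%), 186 in the positive (0.839%) and 602 in the negative direction (2.71%). Within AE9a 652 genes (2.94%) changed between these passages and within the knockout arm 897 (4.04%). The other arms also differed in sex-linked signal between these passages. The median of the 4 sex-linked genes was 1.04 in AE9a and 2.45 in the knockout arm, where 3 passed as higher (307 of all 22180 genes). Against the knockout 3 of the 4 passed in the negative direction, against 2.71% of all genes. The part of this signal in the differences between arms was not tested. The count against AE9a was 751 with the spread as a covariate, 975 without the narrow arrays, 1154 after cyclic loess, 1180 after quantile normalization and 418 without the Y-linked arrays. The count against the knockout was 169 without the Y-linked arrays. The count against AE9a was 8452 without replicate 3 of passage 4 with added miR-126 and fell to 818 without AE9a replicate 1 of passage 1. Leaving out 1 array gave 918 and 896 without replicates 1 and 2 of passage 4 with added miR-126, 1156 and 1196 without its replicates 1 and 3 of passage 1, and 1225 and 1368 without AE9a replicates 1 and 3 of passage 4. The count against the knockout was 4032 without replicate 3 of passage 4 with added miR-126, and 485 and 458 without replicates 1 and 3 of passage 1. It was 502 without knockout replicate 2 of passage 1, and 521 and 515 without knockout replicates 2 and 3 of passage 4.

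Tmem178 changed by 5.70 ± 0.75 more than in AE9a (adjusted p = 1.35e-05) and 5.65 ± 0.75 more than in the knockout arm (adjusted p = 1.93e-05). In those arms it went from 5.12 to 4.90 and from 5.01 to 4.84, so it stayed at the level of normal marrow there. Retnlg went from 12.24 to 12.15 in AE9a and from 10.39 to 10.90 in the knockout arm, and its change differed by -6.48 ± 0.88 and -7.08 ± 0.88 (adjusted p = 1.96e-05 and 8.14e-06). Of the 25 mature neutrophil genes 20 differed from AE9a and 15 from the knockout arm, all in the negative direction. Over all genes 5.94% and 2.71% did so. The list medians in those arms were -0.21 and 0.14. As log2 of the sum, the list read 15.78 to 15.92 at passage 1 in AE9a and 13.78 to 15.37 in the knockout arm. Itgam differed by -3.92 ± 0.66 and -4.43 ± 0.66 and Fn1 by -6.36 ± 0.83 and -5.84 ± 0.83, with adjusted p = 0.000356, 0.000102, 1.35e-05 and 6.26e-05 in that order. Scrg1, a small secreted protein, differed most among named genes from the knockout arm in the negative direction after Retnlg and Ifitm6 (-6.23 ± 0.93, adjusted p = 0.000102).

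Some changes passed against neither arm or against only 1 of them. Plet1 went from 11.58 to 6.83 in AE9a and from 10.38 to 6.38 in the knockout arm, and its change with added miR-126 differed by -0.42 ± 0.53 (adjusted p = 0.58) and -1.18 ± 0.53 (adjusted p = 0.234). Flt3 changed by 1.66 and 2.52 in those arms, and the differences of 1.48 ± 0.89 and 0.62 ± 0.89 did not pass (adjusted p = 0.241 and 0.749). Myc went from 6.90 to 8.71 in AE9a, with a difference of 0.52 ± 0.47 (adjusted p = 0.446), whereas in the knockout arm it went from 7.82 to 7.85 and the difference of 2.29 ± 0.47 passed (adjusted p = 0.00369). Myb differed from AE9a by 2.13 ± 0.58 (adjusted p = 0.0206) and from the knockout arm by 1.82 ± 0.58 (adjusted p = 0.0789). Spred1 and Errfi1 differed from AE9a by -1.91 ± 0.52 and -2.45 ± 0.73 (adjusted p = 0.0215 and 0.0328) and from the knockout arm by -0.80 ± 0.52 and -1.12 ± 0.73 (adjusted p = 0.422 and 0.429).

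**Figure D5:**
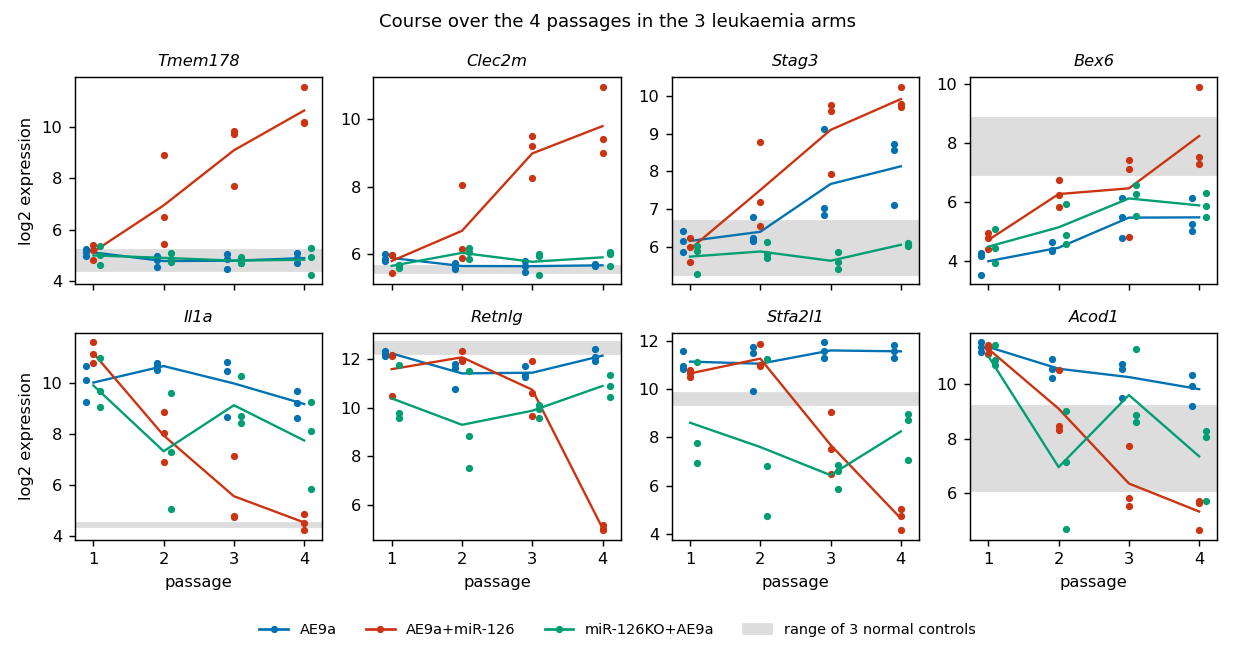
Log2 expression (y axis) over passages 1 to 4 (x axis) of the 4 genes that rose and the 4 that fell furthest with added miR-126, in each leukaemia arm; points are mice, lines join group means and the grey band is the range of the 3 normal controls. Tmem178 and Clec2m stay near the normal band in the other arms, and Retnlg with added miR-126 is at 12.08 at passage 2 and 5.02 at passage 4.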

How the data were processed

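RNA of sorted marrow cells was measured on Affymetrix Mouse Gene 2.0 ST arrays, 1 array per mouse. The log2 values are the authors' deposited expression values for 27037 probe sets, made with RMA and Partek 6.0 per the submitters' processing notes; the sources used here do not give the background step, filters, batches or genome build. Gene symbols came from the platform annotation: 23521 probe sets had 1 symbol, 1814 several and 1702 none. Only the first were tested, and the probe set with the highest mean was kept for the 1082 genes with more than 1, leaving 22180 genes. No detection calls were used.

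All 39 arrays entered 1 model of 13 group means in limma 3.58.1 (R 4.3.3), with 26 residual degrees of freedom. A gene passed at a Benjamini-Hochberg adjusted p under 0.05 over all genes, with no minimum fold, and the value after ± is a standard error unless marked SD. Replicate numbers were checked for pairing. Array pairs with identical values numbered 0. The fits were tested on simulated data that held no narrow arrays. There the main fit recovered 6 of 50 genes changed 1.5-fold, 28 of 50 changed 2-fold and 47 of 50 changed 4-fold. It passed 4 of 21980 unchanged genes.

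The comparison, the 24 gene lists (430 of 470 symbols measured) and the rules were chosen with earlier results of these data known. Named genes were the 12 largest rises and falls among called genes with groups that did not overlap, the 6 largest in each direction among those called in 3 settings, the 4 largest in each direction from each test between arms, up to 4 of smallest adjusted p per list, and Egfl7, Runx1t1, Runx1, Errfi1, Spred1, Fzd7, Zzef1, Myb and Itgam, with predicted genes, small RNAs and receptor and immunoglobulin families passed over. Other list members were chosen after their values were seen. Alternatives tried were fitting only the compared groups, a replicate block, a trended robust prior, every probe set, dropping dim genes, weighting arrays, loess or quantile normalization, array spread as a covariate, a 2-fold minimum, and leaving out narrow arrays or each array; leaving out the passage 1 arrays with an Eif2s3y level over 6 was chosen after seeing the data.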

Additional observations from a re-analysis of the deposited data

Results flagged for a closer look

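The changes with added miR-126 that differed from those in another arm, by limma's test of the difference itself, are collected here. They number 2336 genes against AE9a and 788 against the knockout arm.

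Against AE9a, passage 4 minus passage 1 was more positive with added miR-126 for Tmem178 (5.70), Clec2m (4.21), Mid1 (3.55), a microtubule-bound ubiquitin ligase, and Btbd35f1 (3.38). Btbd35f1 read 11.18 and 11.23 on the narrow arrays of passage 4 and 7.66 on the wide one, against 7.72 to 8.11 at passage 1, so that its rise of 2.15 was absent from replicate 3. Mid1 read 11.72, 11.77 and 11.69 on the same arrays. More negative changes were those of Stfa3 (-6.56), Retnlg (-6.48), Ifi204 (-6.46) and Stfa2l1 (-6.43).

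Against the knockout arm the positive differences were those of Tmem178 (5.65), Tph1 (3.77), Clec2m (3.74) and Stag3 (3.65). Tph1, the enzyme that starts serotonin synthesis, did not itself pass between passages with added miR-126 (0.20, adjusted p = 0.847). The negative differences were those of Retnlg (-7.08), Ifitm6 (-6.56), Scrg1 (-6.23) and Il1b (-6.17). Scrg1 lost its own fall of 3.73 without the passage 1 arrays with Y-linked signal (-2.39, adjusted p = 0.139).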

How the results depend on the processing

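The number of genes changed between passages 4 and 1 was 5395, and it moved to 1559 with only the compared groups in the fit, 16509 with array weights, 3401 with the spread as a covariate, 3073 without the arrays with an SD under 1.8, 2600 with a 2-fold minimum, 1044 without the Y-linked arrays and 1262 without both sets of arrays; leaving out 1 array gave 2717 to 9796. Against AE9a 2336 genes differed, 1350 with the compared groups alone, 13981 with array weights, 1154 after cyclic loess, 1180 after quantile normalization, 751 with the covariate, 975 without narrow arrays, 418 without Y-linked arrays, 528 without both, and 818 to 8452 leaving out 1 array. Against the knockout 788 differed, 10402 with array weights, 169 without Y-linked arrays, 425 without both, and 458 to 4032 leaving out 1 array.

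The probe set of Mir126a and Egfl7 stood at -1.03, at 0.032 with the covariate, at 0.29 without narrow arrays and at 0.33 without both. Leaving out 1 array gave -1.69 to -0.70, and it passed in limma without replicate 3 of passage 4 (-1.69, adjusted p = 0.00859). With array weights it stood at -1.59 and also passed (limma adjusted p = 1.56e-10). In the gene fit these weights were 6.32, 0.48 and 0.095 on replicates 1 to 3 of passage 4. On those of passage 1 they were 0.99, 0.71 and 8.47. The weighted gene count between the passages thus rested mostly on 1 narrow array and 1 array of passage 1. Weights of the probe set fit were estimated apart and are not given here.

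No pairing by replicate number was seen: the deviations of same-numbered mice correlated at -0.117, 0.042 and -0.070. Those of mice with different numbers correlated at -0.085 to 0.116. Array spread and Y-linked signal also differ within the groups, so this check cannot tell whether same-numbered mice were linked. With the replicate block 4457 genes passed, 1486 against AE9a and 569 against the knockout, and 84 of the 89 called named genes kept their call.

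Of 117 named genes 89 were called. The sign turned for 23 genes in at least 1 setting, and 0 of these turned values passed in limma. Without narrow arrays the values were -0.21 for Btbd35f1, -0.41 for Tph1, -0.021 for Trim10, -0.17 for Car1, -0.22 for Gp6, -0.008 for Col1a2, 0.17 for Ccnd1, 0.17 for Cbfb, 0.31 for Runx1, 0.14 for Sdhb, 0.025 for Cox7a2, 0.30 for Ndufs1, 0.008 for Tbp, 0.22 for Pgk1 and 0.26 for Fzd7. Without both sets they were -0.45 for Btbd35f1, -0.76 for Tph1, -0.055 for Alox15, 0.78 for Car2, -0.45 for Car1, 0.85 for Nfe2, -0.16 for Gp6, -0.18 for Col1a2, 0.44 for Ccnd3, 0.17 for Cbfb, 0.22 for Runx1, 0.033 for Sdhb, 0.35 for Ndufs1, 0.40 for Kdm5d, 0.12 for Tbp, 0.10 for Pgk1 and 0.21 for Fzd7. Without the Y-linked arrays they were -0.15 for Tph1, 0.52 for Car2, -0.23 for Cbfa2t3 and 0.18 for Kdm5d. With the covariate they were 0.074 for Cbfb, 0.15 for Runx1, 0.14 for Ndufs1, 0.19 for Tbp and 0.036 for Pgk1. After cyclic loess they were -0.011 for Vwf, 0.14 for Runx1, 0.15 for Ywhaz, 0.10 for Tbp and 0.22 for Pgk1, and after quantile normalization -0.020 for Tph1, 0.028 for Runx1, 0.065 for Tbp and 0.056 for Pgk1. Cbfa2t3 turned to -0.029 with array weights, and ran from -0.11 without replicate 3 of passage 4 to 0.53 without replicate 2 of passage 1. The cause of these turns was not tested. Without narrow arrays passage 4 is a single mouse whose variance is taken from the other groups, and array brightness near background limits the dimmest genes.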
